A study of Mus musculus with 6 samples.

Results

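The values listed under 10 genes of glycolysis and of the hypoxia response were compared in upper first molars of newborn mice that carried an Ascl5 mutation. The genes were taken by symbol, Slc2a1, Hk2, Pfkl, Aldoa, Pgk1, Eno1, Pkm, Ldha, Bnip3 and Vegfa, and all 10 were present among the 24972 genes of each deposited table. The study holds 6 RNA-seq libraries of maxillary first molars at postnatal day 1, 2 each from Ascl5Mut/Mut molars (both alleles mutated), Ascl5Mut/WT molars (1 allele mutated) and Ascl5WT/WT molars (no mutated allele). The sources used here do not give the nature of the mutation, the strain, the sex or the number of animals or teeth per library, and they name no treatment. The comparisons ask how expression in molars with 2 or 1 mutated alleles differed from that in molars with none.

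Glycolysis splits glucose into pyruvate in the cytosol and lets cells make ATP and building blocks without oxygen. When oxygen is scarce, the hypoxia-inducible transcription factors escape degradation and switch on glucose transporters, glycolytic enzymes, the mitophagy receptor Bnip3 and the vessel growth factor Vegfa through short promoter elements with the core ACGTG or GCGTG. In the developing tooth, blood vessels grow into the dental papilla beside the dental epithelium. Whole molars were sequenced, so fewer cells of a type and less RNA per cell cannot be told apart in any value below.

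In Ascl5Mut/Mut molars, Ldha stood higher and Hk2 and Pkm stood lower than in Ascl5WT/WT molars in both libraries of each genotype, and none of these differences passed the test across all genes. In Ascl5Mut/WT molars, Pfkl stood higher and Pkm and Vegfa stood lower in both libraries, again without passing. Slc2a1, Eno1 and Bnip3 stood at 0 in both Ascl5Mut/Mut libraries and at 0 in 1 Ascl5WT/WT library too. Aldoa and Pgk1 overlapped between genotypes in both comparisons. The strand on which reads were counted is in doubt, so these values may not be levels of the genes' own transcripts.

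The library kit keeps the strand of each transcript, and the strand setting used for counting is not given in the sources used here. In each table, 17 of the 20 annotated genes with the highest means had exons that overlap those of a gene on the opposite strand in the GENCODE M21 annotation (GRCm38), against 33.7% and 34.2% of genes above 0 in the Ascl5Mut/Mut and Ascl5Mut/WT tables. Snx22 had 50650.4 and 49423 normalized counts in Ascl5Mut/Mut, against 46479 and 48658 in Ascl5WT/WT, while Ppib, an abundant chaperone gene whose exons lie opposite, had 277 and 1091, against 885 and 1791. Copg2 had 196278 and 143155 in Ascl5Mut/Mut, against 52675 and 67446 in Ascl5WT/WT, and its opposite gene Mest had 4987 and 5059, against 6990 and 6189. The enamel genes Amelx, Ambn and Enam, which define secretory tooth epithelium, had 0 to 140 normalized counts in Ascl5Mut/Mut and 0 to 109 in Ascl5WT/WT, and 0 to 809 in Ascl5Mut/WT. The dentin genes Dspp and Dmp1 were not all as low. Dspp had 0 and 0 in Ascl5Mut/Mut, against 327 and 0 in Ascl5WT/WT. In Ascl5Mut/WT it had 14045 and 8122, against 336 and 0. Dmp1 had 692 and 551 in Ascl5Mut/Mut and 378 and 413 in Ascl5Mut/WT, against 0 and 0 in Ascl5WT/WT. Counting on the strand opposite to the genes would place reads as in the pairs and enamel genes above. The reads themselves were not examined here. In that case the values below would hold antisense or stray reads, and no value could be read as the amount of a messenger RNA. Each value below is therefore given as the number the authors deposited under that gene name.

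Values are the authors' normalized gene counts. Low values clustered near multiples of a step of 108.7 to 139.8, which appears to be the value of 1 read, and dividing the library totals of 12304814 to 13118122 by it gave an estimated depth of only 90476 to 117190 reads counted on genes. A gene listed at 0 therefore allows up to 3 reads, a floor of 326 to 419 normalized counts, counting error only. Each library listed 66.6% to 71.0% of all genes at 0, Ascl5 among them in all 6 libraries, so the mutated gene gives no check of the labels. The 10 genes together held 0.0988% and 0.0798% of the normalized counts of the Ascl5Mut/Mut libraries, 0.0737% and 0.0874% of the Ascl5Mut/WT libraries, and 0.112% and 0.105% of the Ascl5WT/WT libraries. The 2 tables were normalized separately, and the Ascl5WT/WT values of these genes were 1.00 to 1.04 times as high in the Ascl5Mut/WT table. The mutant genotypes were therefore not tested against each other, both comparisons share the same Ascl5WT/WT libraries, and a value of Ascl5WT/WT is always given from the table of the mutant beside it.

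The upstream sequence of Hk2 and Ldha is shown because these were the members with the largest differences in opposite directions in Ascl5Mut/Mut molars, and that of Pgk1, which overlapped between genotypes, is shown beside them. Each is the 250 bases before an annotated start site, written in the direction of transcription, from RefSeq (GRCm38.p6). Capitals mark the hypoxia element core, ACGTG or GCGTG on either strand, so that CACGT and CACGC are the same core read from the other strand.
Hk2, chr6:82774455-82774704, minus strand: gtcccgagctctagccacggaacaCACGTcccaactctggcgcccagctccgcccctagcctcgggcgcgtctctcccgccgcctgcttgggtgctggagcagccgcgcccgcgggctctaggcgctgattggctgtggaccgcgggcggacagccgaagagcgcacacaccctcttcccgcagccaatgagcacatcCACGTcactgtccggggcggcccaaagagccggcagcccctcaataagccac
Ldha, chr7:46845554-46845803, plus strand: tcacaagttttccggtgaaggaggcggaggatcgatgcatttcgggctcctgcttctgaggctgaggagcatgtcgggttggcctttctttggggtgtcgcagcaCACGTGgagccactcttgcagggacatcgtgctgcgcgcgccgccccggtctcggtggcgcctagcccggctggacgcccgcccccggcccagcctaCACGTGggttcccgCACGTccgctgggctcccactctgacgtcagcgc
Pgk1, chrX:106186850-106187099, plus strand: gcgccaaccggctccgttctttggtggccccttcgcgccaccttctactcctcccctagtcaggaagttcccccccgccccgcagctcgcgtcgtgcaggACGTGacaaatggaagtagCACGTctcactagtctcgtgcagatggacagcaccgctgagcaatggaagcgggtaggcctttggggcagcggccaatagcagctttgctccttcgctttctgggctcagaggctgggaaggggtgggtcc

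The Hk2 window held the core at 2 places, the Ldha window at 3 and the Pgk1 window at 2. At 2 of the 3 places in this Ldha window the core reads on both strands as CACGTG. That is also an E-box (CANNTG), a broad motif class bound by basic helix-loop-helix proteins. An E-box of any kind was found upstream of 8 of the 10 genes, against 69.3% of all genes with a window. A second Ldha window, not shown, held the core at 1 place. A core was found upstream of at least 1 start site of all 10 genes and in 14 of their 17 windows, against 38.6% of the 32851 windows in the table. Aldoa, Pkm and Vegfa each also had 1 window with no core. For Vegfa that was the window at the outer start site, and its cores came from a window inside the gene (chr17:46025164-46025413). Some windows of Aldoa and of Eno1 overlap and hold the same cores, so the 17 windows are not separate counts. The windows of the 10 genes were rich in G and C, with a median of 66.4% against 52.4% over all windows. Among all windows with a G and C content of at least 60%, 63.8% held a core, and among the 11 such windows of these genes 10 did. The E-box CAGCTG was found only upstream of Pkm, against 14.7% of all genes with a window. These matches describe the sequence and show no binding.

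**Figure D1:**
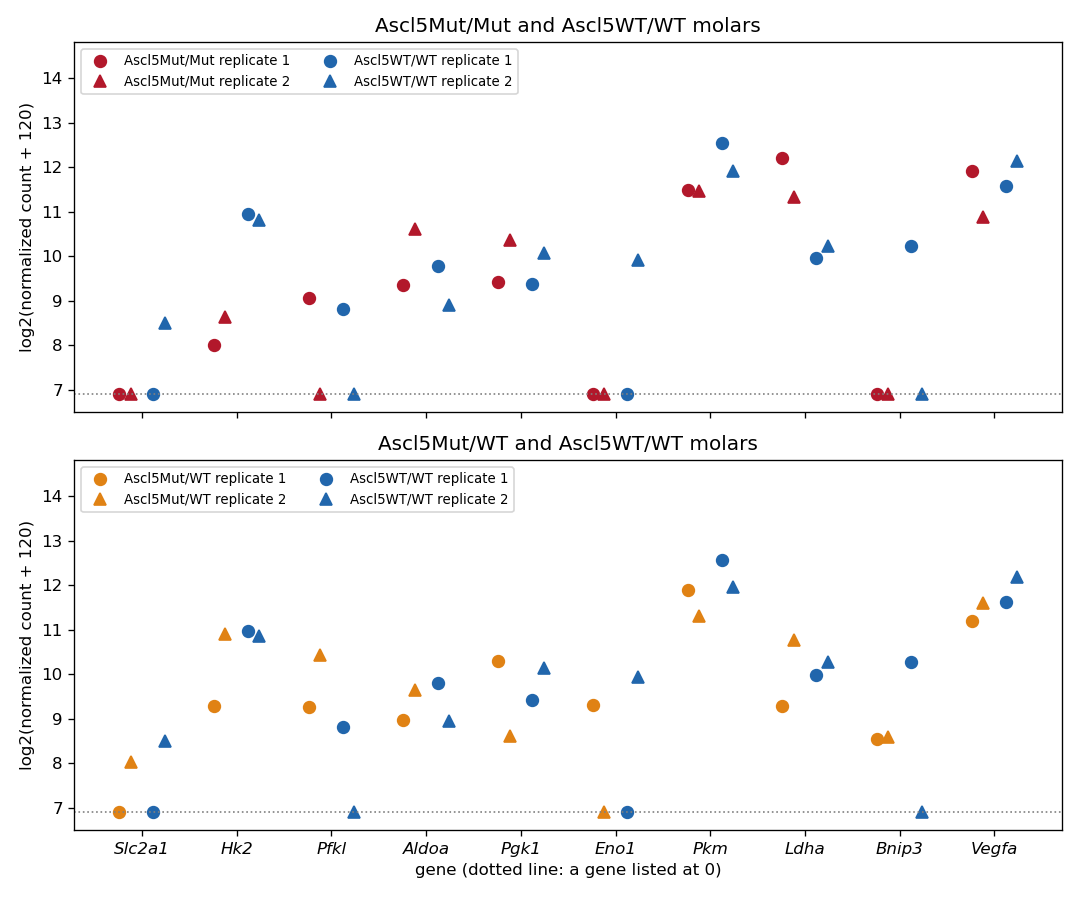
Normalized counts of the 10 genes in each library, on a log2 scale after adding 120, with mutant libraries left of Ascl5WT/WT libraries and 1 symbol per library. In the upper panel both Ascl5Mut/Mut libraries lie above both Ascl5WT/WT libraries for Ldha and below them for Hk2 and Pkm, and symbols on the dotted line are genes listed at 0.

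The first steps of glycolysis take up glucose and trap it in the cell. Slc2a1 encodes the glucose transporter GLUT1, and its normalized counts were 0 and 0 in Ascl5Mut/Mut, against 0 and 239.9 in Ascl5WT/WT. Ascl5Mut/WT molars had 0 and 141, against 0 and 243 in Ascl5WT/WT. All of these values lie below the floor of 3 reads, so no difference in Slc2a1 was detectable at this depth. Hk2, hexokinase 2, phosphorylates glucose on the outer mitochondrial membrane. Its values were 139 and 275 in Ascl5Mut/Mut, against 1861 and 1666 in Ascl5WT/WT. Both Ascl5Mut/Mut values correspond to an estimated 1 and 2 reads, those of Ascl5WT/WT to 17.1 and 13.9, and the groups did not overlap.

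From the estimated reads, the ratio of Hk2 in Ascl5Mut/Mut to Ascl5WT/WT was 0.117, with a 95% interval of 0.0230 to 0.377 (Clopper-Pearson, conditional on the total) that covers counting error only. The mean of Hk2 over the 4 libraries was 985, just under the minimum of 1000 for the test, so it did not enter that test. With the minimum lowered to 10 its difference was -2.56 on the log2(normalized count + 120) scale (SE 0.82, unadjusted p = 0.0171, limma adjusted p = 0.709). In Ascl5Mut/WT, Hk2 had 503 and 1787, against 1894 and 1734 in Ascl5WT/WT. There the replicates spread more than the groups (difference -0.83, SE 0.77, limma adjusted p = 0.764), and 1 mutant library alone was low.

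The middle steps prepare and split the sugar. Pfkl, the liver-type subunit of phosphofructokinase, had 416 and 0 in Ascl5Mut/Mut, against 330.5 and 0 in Ascl5WT/WT, which is near 3 estimated reads in the library above 0 of each genotype. Ascl5Mut/WT molars had 497 and 1256, against 331 and 0 in Ascl5WT/WT, so both mutant libraries were higher. Its ratio there was 4.84 from an estimated 13 reads in Ascl5Mut/WT and 3 in Ascl5WT/WT, with a 95% interval of 1.33 to 26.5 that covers counting error only and rests on read numbers estimated from the value of 1 read, and its difference did not pass (1.99, SE 1.13, limma adjusted p = 0.770 with the minimum mean of 10). Per kilobase of exon, Pfkl averaged 31.2 normalized counts in Ascl5Mut/Mut and 24.8 in Ascl5WT/WT, the muscle-type subunit Pfkm 84.6 and 86.2, and the platelet-type subunit Pfkp 487 and 789. In Ascl5Mut/WT, Pfkl averaged 131, Pfkm 98.4 and Pfkp 503 per kilobase.

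Aldoa, the aldolase of muscle and most embryonic tissues, had 538 and 1434 in Ascl5Mut/Mut, against 756 and 358 in Ascl5WT/WT. Its Ascl5Mut/WT values were 384 and 686, against 768 and 372 in Ascl5WT/WT. Pgk1, the X-linked kinase of the first ATP-forming step, had 563 and 1208 in Ascl5Mut/Mut, against 548 and 961 in Ascl5WT/WT. It had 1139 and 269 in Ascl5Mut/WT, against 559.9 and 1004 in Ascl5WT/WT. In each of these 4 comparisons the groups overlapped, and the replicates of a genotype differed by more than the genotypes did. Eno1, enolase, had 0 and 0 in Ascl5Mut/Mut, against 0 and 840.5 in Ascl5WT/WT, and 511 and 0 in Ascl5Mut/WT, against 0 and 865 in Ascl5WT/WT. Eno1b, a near-identical copy, had 130.0 and 142 in Ascl5Mut/Mut, against 450.1 and 0 in Ascl5WT/WT, and 0 and 956 in Ascl5Mut/WT, against 443 and 0 in Ascl5WT/WT. How reads shared by both copies were assigned is not given in the sources used here, so single values of Eno1 are uncertain. The sum of both copies was 130.0 and 142 in Ascl5Mut/Mut, about 1 estimated read each, against 450.1 and 840.5 in Ascl5WT/WT. In Ascl5Mut/WT the sum was 511 and 956, against 443 and 865 in Ascl5WT/WT, and the groups overlapped.

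The last steps form pyruvate and lactate. Pkm, pyruvate kinase of most tissues outside the liver, had 2765 and 2684 in Ascl5Mut/Mut, against 5810.1 and 3721 in Ascl5WT/WT. The Ascl5Mut/Mut mean of 2724 ± 57.1 lay below the Ascl5WT/WT mean of 4766 ± 1477 (SD, n = 2 each), without overlap. In Ascl5Mut/WT, Pkm had 3647 and 2398, against 5904 and 3868 in Ascl5WT/WT, which also did not overlap. Neither difference passed, with -0.75 on the log2 scale for Ascl5Mut/Mut (SE 0.51, limma adjusted p = 0.594) and -0.67 for Ascl5Mut/WT (SE 0.50, limma adjusted p = 0.695). The shared Ascl5WT/WT libraries mean that these are not separate observations.

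Ldha, the lactate dehydrogenase subunit that favours lactate formation, had 4595 and 2460.0 in Ascl5Mut/Mut, against 879 and 1072 in Ascl5WT/WT. Both mutant libraries lay above the Ascl5WT/WT pair by more than the gap within that pair. The mean was 3528 ± 1510.0 in Ascl5Mut/Mut and 975 ± 136 in Ascl5WT/WT (SD, n = 2 each), and the estimated 51 and 17 reads gave a ratio of 3.64 with a 95% interval of 2.07 to 6.73 for counting error. The difference of 1.68 on the log2 scale had an unadjusted p of 0.0274 and did not pass over all genes (SE 0.65, limma adjusted p = 0.368). In Ascl5Mut/WT, Ldha had 504 and 1630.1, against 897 and 1119 in Ascl5WT/WT, so the mutant libraries lay on either side of the control pair (difference -0.10, SE 1.00, limma adjusted p = 0.985). Ldhal6b, a gene copy of Ldha, had 0 and 815 in Ascl5Mut/Mut and 0 and 0 in Ascl5WT/WT, and reads that both genes share could stand under either.

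Bnip3 and Vegfa are targets of the hypoxia response outside glycolysis. Bnip3, which marks mitochondria for removal, had 0 and 0 in Ascl5Mut/Mut, against 1089 and 0 in Ascl5WT/WT, and 254 and 268 in Ascl5Mut/WT, against 1126 and 0 in Ascl5WT/WT. The level of Bnip3 in Ascl5WT/WT rests on replicate 1 alone. Vegfa, the growth factor that draws in blood vessels, had 3729 and 1755 in Ascl5Mut/Mut, against 2952 and 4351 in Ascl5WT/WT, and the groups overlapped (difference -0.46, SE 0.58, limma adjusted p = 0.778). Ascl5Mut/WT molars had 2224 and 3001, against 3007 and 4533 in Ascl5WT/WT, so the groups did not overlap but nearly touched (difference -0.50, SE 0.52, limma adjusted p = 0.777).

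**Figure D2:**
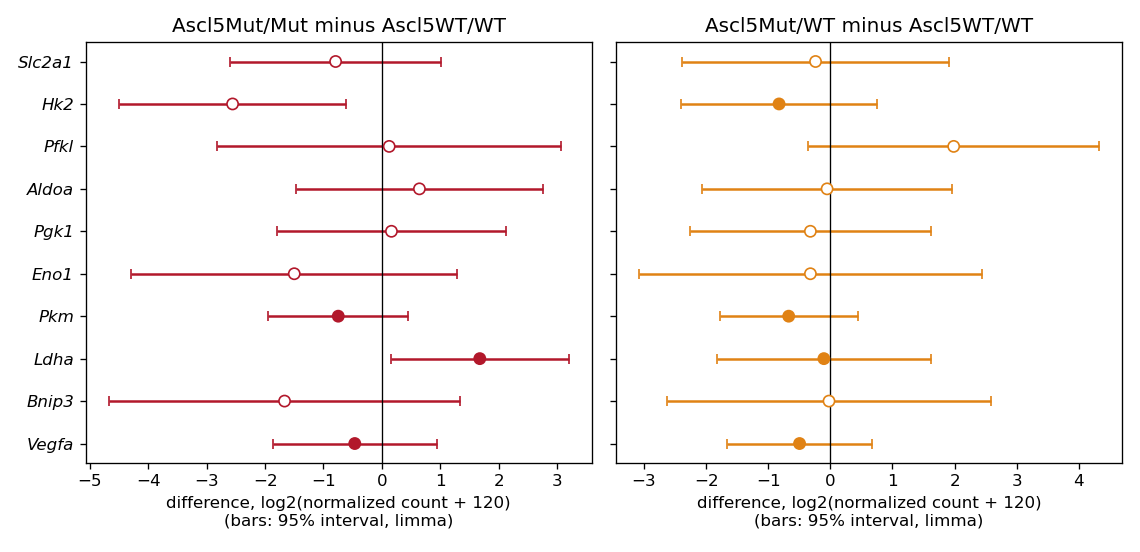
Difference of each gene between mutant and Ascl5WT/WT molars on the log2(normalized count + 120) scale, with 95% intervals from limma at a minimum mean of 10. Filled circles are genes with a mean of at least 1000. The interval lies below 0 for Hk2 and above 0 for Ldha in Ascl5Mut/Mut (no adjustment for multiple tests), and every interval spans 0 in Ascl5Mut/WT.

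Of the 2336 genes that reached a mean of 1000 in the Ascl5Mut/Mut table, limma called 20, which is 0.856% (0.557% higher and 0.3% lower), at a Benjamini-Hochberg adjusted p under 0.05. None of the 3 genes of the set that entered (Pkm, Ldha and Vegfa) was among them, and 1 had an unadjusted p under 0.05, as did 261 of all 2336 genes. In Ascl5Mut/WT the test called 13 of 2370 genes, 0.549% (0.338% higher and 0.211% lower), none of them among the 4 that entered (Hk2, Pkm, Ldha and Vegfa), and 0 of them had an unadjusted p under 0.05, against 207 of all 2370 genes. With the minimum mean at 10 all 10 genes entered and 0 passed in either comparison, where 0.00785% of 12731 genes in Ascl5Mut/Mut and 0.0949% of 12644 in Ascl5Mut/WT did. At an unadjusted p under 0.05 these fits had 2 of the 10 and 566 of all 12731 genes in Ascl5Mut/Mut, and 0 of the 10 and 502 of all 12644 genes in Ascl5Mut/WT.

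Lack of overlap was common. In Ascl5Mut/Mut, 13.3% of genes with a mean of at least 10 were higher in both mutant libraries than in both Ascl5WT/WT libraries and 13.5% were lower, against 1 and 2 of the 10 genes. In Ascl5Mut/WT these shares were 14.5% higher and 11.8% lower, again against 1 and 2 of the 10. The counts in the set are thus near those over all genes. The median difference of the 10 genes was -0.61 in Ascl5Mut/Mut, with 6 below 0, and -0.28 in Ascl5Mut/WT, with 9 below 0. Among those 9, Bnip3, Aldoa and Ldha lay close to 0, at -0.02, -0.05 and -0.10. With a pseudocount of 1 the Bnip3 difference was 2.96, so the number below 0 depends on the pseudocount. Over all genes the median was 0.01 with 49.8% below 0 and 0.05 with 47.8% below 0.

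**Figure D3:**
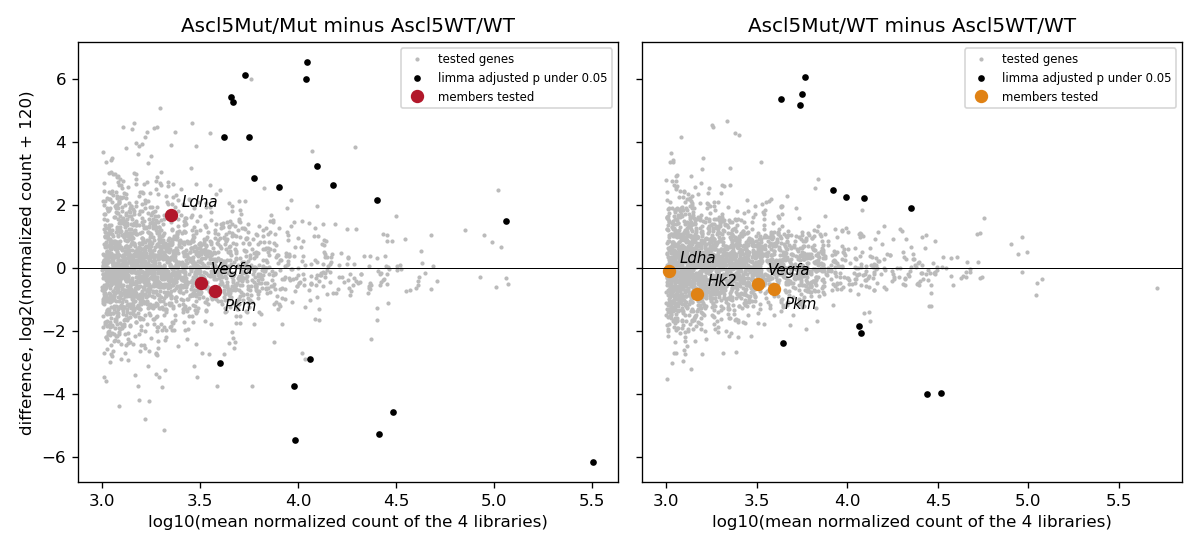
Difference on the log2(normalized count + 120) scale against the mean normalized count (log10) for all genes with a mean of at least 1000, with genes past an adjusted p of 0.05 in black and the genes of the set coloured and named. The named genes lie within the cloud of the other tested genes in both comparisons.

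The summed value of the 10 genes was 12744 and 9816 in Ascl5Mut/Mut, against 14226 and 13209.7 in Ascl5WT/WT, and 9663 and 11434 in Ascl5Mut/WT, against 14487 and 13738. Both mutant sums thus lay below the control pair, with log2 ratios of the means of -0.28 and -0.42. Pkm and Vegfa alone held 51.0% and 45.2% of the sum in Ascl5Mut/Mut, 60.8% and 47.2% in Ascl5Mut/WT, and 61.6% and 61.1% in Ascl5WT/WT. Without Pkm the log2 ratio for Ascl5Mut/Mut was -0.07.

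The deposited values were also ordered after division by exon length. This is an order of transcript levels only if reads were counted on the genes' own strand. Per kilobase of exon, Ldha led in Ascl5Mut/Mut with 1066 ± 456, followed by Vegfa with 640 ± 326, Pkm with 545 ± 11.4 and Pgk1 with 395 ± 203 normalized counts (SD, n = 2). In Ascl5Mut/WT, Vegfa (610 ± 128) and Pkm (604 ± 177) led, followed by Ldha (322 ± 241) and Pgk1 (314 ± 274). In Ascl5WT/WT of the Ascl5Mut/Mut table, Pkm (953 ± 295) and Vegfa (852 ± 231) led, with Pgk1 (336 ± 130.1), Hk2 (295 ± 23.1) and Ldha (295 ± 41.2) behind them. The next values in Ascl5Mut/Mut were 266 ± 171 for Aldoa and 34.7 ± 16.1 for Hk2. In Ascl5Mut/WT they were 192 ± 152 for Hk2, 144 ± 57.5 for Aldoa, 131 ± 80.3 for Pfkl and 115 ± 4.20 for Bnip3. In Ascl5WT/WT, Aldoa had 150.2 ± 75.8, and Bnip3 stood above it only through replicate 1. Among genes above 0 in both libraries, neighbours in these orders differed by more than the larger of their SDs only between Aldoa and Hk2 in Ascl5Mut/Mut, between Pkm and Ldha in Ascl5Mut/WT, and between Vegfa and Pgk1 and between Ldha and Aldoa in Ascl5WT/WT.

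Other enzymes of the pathway were compared with the same test. Of 26 further glycolytic genes, 4 entered the test in Ascl5Mut/Mut and 3 in Ascl5Mut/WT, and none passed in either direction. Pgam1, phosphoglycerate mutase, had 698 and 275 in Ascl5Mut/Mut, against 2186 and 2737 in Ascl5WT/WT (difference -2.18, SE 0.88, limma adjusted p = 0.387). The Ascl5Mut/WT values were 1634 and 1780.3, against 2233 and 2859, again without overlap (limma adjusted p = 0.781). Pfkp had 6185 and 6866 in Ascl5Mut/Mut, against 8756 and 12381 in Ascl5WT/WT, and 6711 and 6774 in Ascl5Mut/WT, against 8906 and 12881 in Ascl5WT/WT. Gapdh, the dehydrogenase of the middle step, had 4123 and 3077 in Ascl5Mut/Mut, against 2431 and 3285 in Ascl5WT/WT, and 4647 and 6682 in Ascl5Mut/WT, against 2421 and 3346 in Ascl5WT/WT. Hk2, Pfkp and Pkm act at the steps where glycolysis is mainly controlled, and for each of them both Ascl5Mut/Mut libraries lay below the Ascl5WT/WT pair without passing the test. Pfkfb2, which makes an activator of phosphofructokinase, had 2448 and 731 in Ascl5Mut/Mut, against 241 and 1389 in Ascl5WT/WT.

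**Figure D4:**
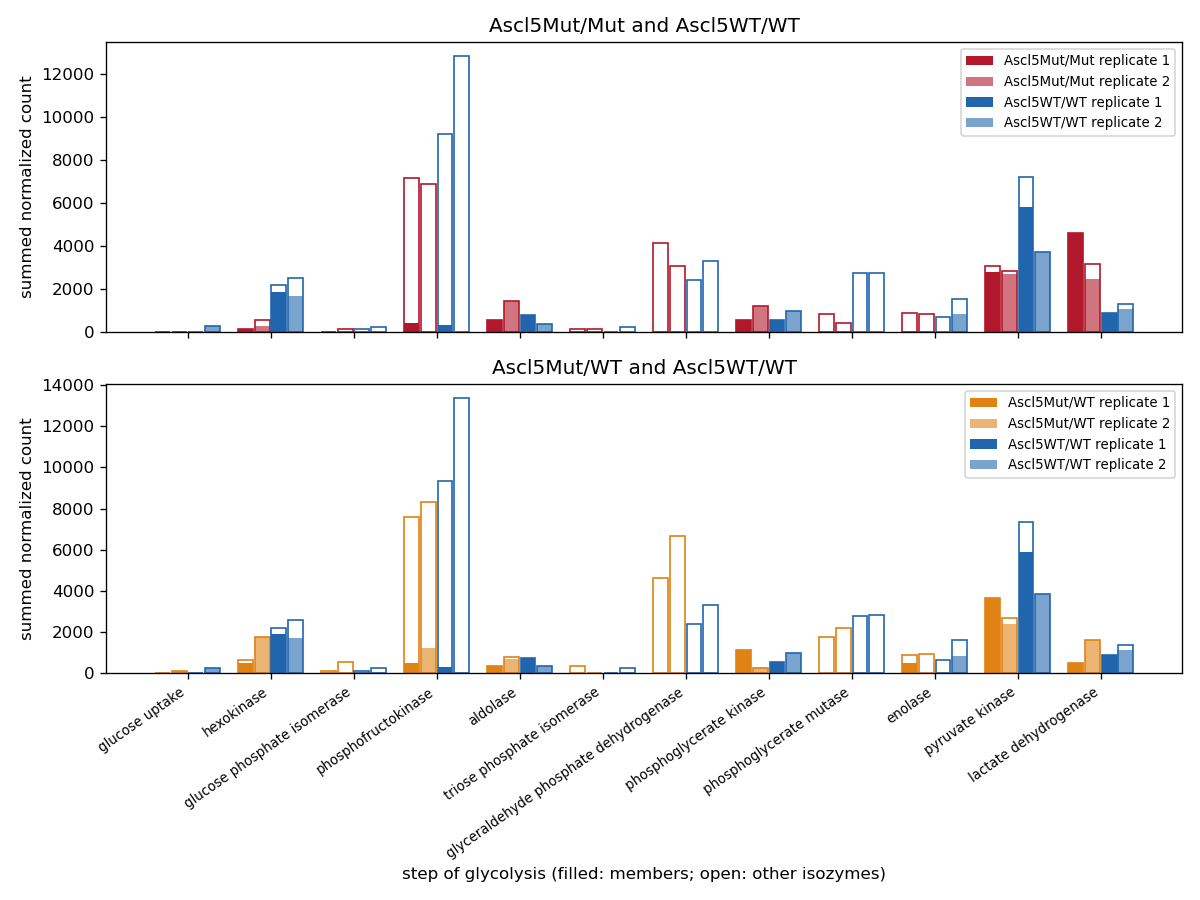
Summed normalized counts of the genes of each step of glycolysis in each library, filled for genes of the set and open for other isozymes, on a linear axis from 0. Values are not scaled to transcript length, so bars are compared within a step. Bars of hexokinase, phosphofructokinase, phosphoglycerate mutase and pyruvate kinase are lower in both Ascl5Mut/Mut libraries than in both Ascl5WT/WT libraries, and bars of lactate dehydrogenase are higher. In Ascl5Mut/WT the bars of the same steps are lower in both libraries, those of glyceraldehyde phosphate dehydrogenase are higher, and those of lactate dehydrogenase overlap.

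Regulators of the hypoxia response were compared next. Of 13 regulators 1 entered the test in Ascl5Mut/Mut and 2 in Ascl5Mut/WT, and none passed. Hif1a, the oxygen-regulated subunit of the factor, had 859 and 540.2 in Ascl5Mut/Mut, against 1503 and 0 in Ascl5WT/WT, and 1585 and 929 in Ascl5Mut/WT, against 1531 and 0. Egln1, the oxygen sensor that marks it for degradation, had 709 and 1822 in Ascl5Mut/Mut, against 4229 and 1185 in Ascl5WT/WT (limma adjusted p = 0.685), and 2951 and 3383 in Ascl5Mut/WT, against 4385 and 1257 in Ascl5WT/WT (limma adjusted p = 0.860). Epas1, a second oxygen-regulated subunit, had 417 and 138 in Ascl5Mut/Mut, against 109 and 356 in Ascl5WT/WT, which overlapped, and 883 and 1106 in Ascl5Mut/WT, against 111 and 370 in Ascl5WT/WT, which did not. The coactivator Crebbp had 140.2 and 0 in Ascl5Mut/Mut, against 877 and 832 in Ascl5WT/WT, and 253 and 415 in Ascl5Mut/WT, against 888 and 861 in Ascl5WT/WT. Egln3, a sensor that hypoxia itself induces, was listed at 0 in all 6 libraries.

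Of 22 further hypoxia response genes, 2 entered each test and none passed. Vldlr, a lipoprotein receptor, had 138 and 0 in Ascl5Mut/Mut, against 1740.2 and 2309.7 in Ascl5WT/WT (difference -3.59, SE 1.95, limma adjusted p = 0.521). Vldlr in Ascl5Mut/WT had 252 and 1741, against 1780.45 and 2417 in Ascl5WT/WT (limma adjusted p = 0.617). Mxi1, a repressor of the Myc network, had 1652 and 827, against 1317 and 1195. Kdm3a, a histone demethylase, had 467 and 1328 in Ascl5Mut/Mut, against 121.8 and 445 in Ascl5WT/WT, and 975 and 1189.6 in Ascl5Mut/WT, against 124 and 464 in Ascl5WT/WT. Plod2, a collagen-modifying enzyme, had 1110.3 and 268 in Ascl5Mut/Mut, against 219 and 736 in Ascl5WT/WT. With the minimum mean at 10, 6 of 19 of these genes lay below 0 in Ascl5Mut/Mut and 7 of 19 in Ascl5Mut/WT, against 49.8% and 47.8% of all genes, and 0 passed in either. The median was 0.85 and 0.56 there, but -1.84 and -0.80 over the 2 genes with a mean of at least 1000.

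The VEGF family had 1 gene in the test in Ascl5Mut/Mut and 0 in Ascl5Mut/WT. Nrp2, a coreceptor for VEGF and semaphorins, had 4084 and 2998 in Ascl5Mut/Mut, against 109 and 1432 in Ascl5WT/WT (difference 2.60, SE 0.96, limma adjusted p = 0.354). Ascl5Mut/WT molars had 1742 and 761, against 103 and 1386 in Ascl5WT/WT. Kdr, the main VEGF receptor of blood vessels, had 257 and 244 in Ascl5Mut/Mut, against 146 and 109 in Ascl5WT/WT, all below the floor of 3 reads. Flt1, a second such receptor, had 0 and 136 in Ascl5Mut/Mut and stood at 0 in the remaining 4 libraries. Of 22 genes of the tricarboxylic acid cycle and respiratory chain, 4 entered the test in Ascl5Mut/Mut and 3 in Ascl5Mut/WT, and none passed. Cox4i1, a subunit of cytochrome oxidase, had 1974 and 4050.1 in Ascl5Mut/Mut, against 4003 and 1675 in Ascl5WT/WT.

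Libraries differed in markers of neighbouring tissue. The summed value of 10 skeletal muscle genes, a tissue rich in Ldha and Aldoa, was 109512 and 5093 in Ascl5Mut/Mut, against 655 and 16289 in Ascl5WT/WT, with Myh8 at 68080 in Ascl5Mut/Mut replicate 1 and the defining factor Myod1 at 0 in all 6 libraries. Without Ascl5Mut/Mut replicate 1 the Ldha difference was 1.24, against 1.68 with it. The sum of 8 dental epithelium genes was 8787 and 31376 in Ascl5Mut/Mut, against 45963 and 39485 in Ascl5WT/WT, and the genotypes did not overlap, as was the case for Hk2 and Pkm. With the minimum mean at 10, all 8 of these genes lay below 0 and none passed. The sum of 10 keratinized oral epithelium genes was 20922 and 134700 in Ascl5Mut/Mut, against 2902 and 658, and 3 of them passed as higher. That of 8 osteoblast and osteoclast genes was 41250 and 31508, against 977 and 6690.1, and Ctsk passed as higher. The sum of 8 dental mesenchyme genes was 72908 and 45387 in Ascl5Mut/Mut, against 26949 and 32221 in Ascl5WT/WT. It rested mainly on Col1a1, Vim and Col3a1, each higher in both Ascl5Mut/Mut libraries than in both Ascl5WT/WT libraries without passing the test. Col1a1 had 46510 and 26959, against 11973 and 23032. Vim had 15610 and 9987, against 9492 and 6430, and Col3a1 9218 and 5830, against 2398 and 2632. Msx1 had 0 and 0, against 654 and 0, Barx1 273 and 296, against 1029 and 0, and Pax9 140 and 0, against 0 and 0. Pdgfra had 1157 and 2314, against 1403 and 127, and Lhx8 stood at 0. Msx1, Barx1, Pax9, Pdgfra and Lhx8 overlapped between the genotypes. The sum of 6 Schwann cell and neuron genes was 3499 and 1797.5, against 2763 and 3558, and that of 6 myeloid genes was 2513 and 2613, against 1754 and 476. The part of these tissues in the values of Ldha, Hk2 and Pkm was not tested.

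In Ascl5Mut/WT molars the muscle sum was 34012 and 8536, against 667 and 16948, and the dental epithelium sum was 30790.5 and 64328, against 46751 and 41316, so both overlapped. The oral epithelium sum was 15461 and 52936, against 2964 and 685, with 2 genes past the test. The dental mesenchyme sum was 67699 and 36222, against 26822 and 33315, without overlap. Sums of 8 endothelial genes were 1740 and 1294 in Ascl5Mut/Mut, against 340 and 730, and 1018 and 680 in Ascl5Mut/WT, against 344 and 757, with Tie1, Emcn, Cldn5 and Esam at 0 in all libraries. Red blood cell markers, whose 7 genes sum to 23656 in Ascl5WT/WT replicate 2, 787 in replicate 1, and 5224 and 3006 in Ascl5Mut/Mut, rested mainly on Hba-a1, Alas2 and Slc4a1, while the beta-globin gene Hbb-bs was listed at 0 in all 6 libraries.

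**Figure D5:**
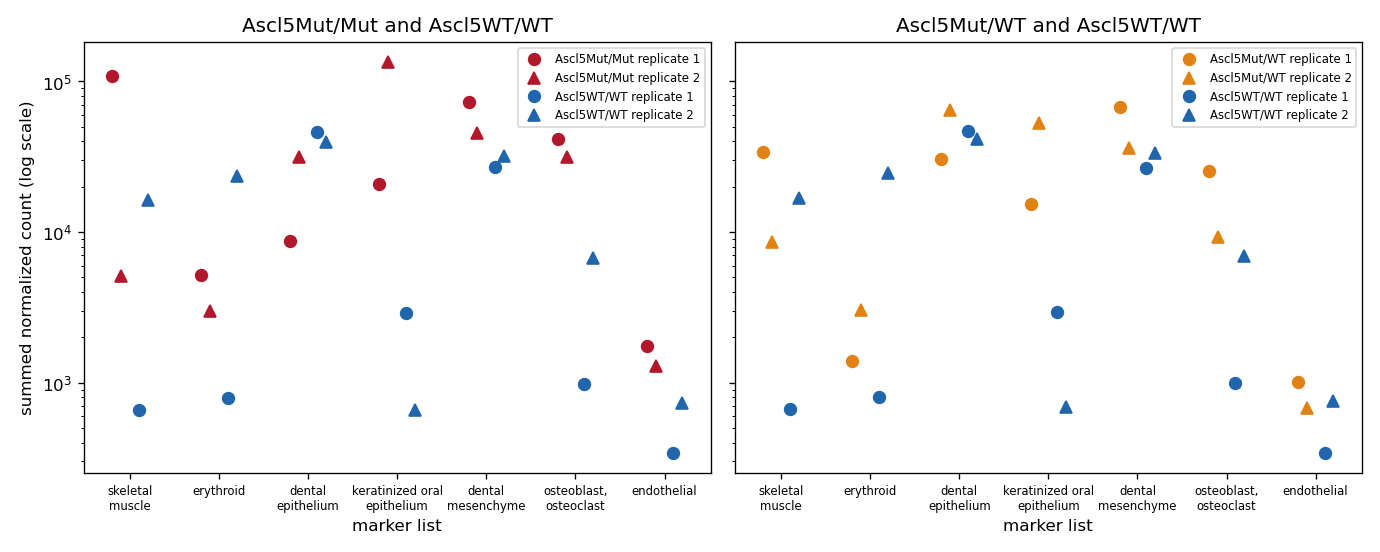
Summed normalized counts of marker lists in each library on a log axis, with mutant libraries left of Ascl5WT/WT libraries. Muscle and red blood cell sums differ widely between replicates. The oral epithelium, dental mesenchyme and bone sums lie above both Ascl5WT/WT libraries in both mutant genotypes.

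Of the 10 genes, 4 have exons that overlap those of another gene. Exons of Aldoa overlap those of Fam57b on the opposite strand by 25 bases, and Fam57b was listed at 0 in all 6 libraries. Exons of Slc2a1 overlap those of the opposite-strand model Gm12868, and those of Bnip3 overlap those of the model Gm45507 by 504 bases, and neither model was used here. If reads were counted without regard to strand or on the opposite strand, values of these 3 genes could include reads of the opposite gene. Hk2 (chromosome 6, 82725025 to 82774454), Ldha (chromosome 7, 46841475 to 46855627), Vegfa, Pgk1, Pfkl and Eno1 overlap no exon of another gene, and Pkm (chromosome 9, 59656368 to 59679375) overlaps only the same-strand model Gm49759, by 767 bases.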

How the data were processed

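RNA-seq libraries were made from total RNA of maxillary first molars with a strand-keeping kit, per the labels' protocols. Normalized counts per gene, a linear signal, were deposited by the authors in 2 tables, each with 1 mutant genotype and the Ascl5WT/WT pair. DESeq2 and mm10 are named in the submitters' processing notes; the sources used here give no aligner, annotation or strand setting. Low values (up to 5 reads) were within 0.1 of a whole number of reads for 83.9% to 93.5% of genes above 0. That was too few to recover reads exactly, so no count model was fitted over genes. Rounded read estimates were used only for the ratios of single genes and their counting-error intervals.

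Each mutant was compared with Ascl5WT/WT within its table by limma 3.58.1 (R 4.3.3) with an intensity trend, two-sided, on log2(value + 120), with a minimum mean of 1000 per gene. This scale understates changes of low genes. Calls needed a Benjamini-Hochberg adjusted p under 0.05. With 2 libraries per group an exact permutation test cannot go below p = 0.33 and was not used. The labels do not say whether replicates came from separate animals, so p-values measure the spread between these samples. The genes, lists, pseudocount and minimum mean were chosen with earlier results of these data known, and the fit was tested on simulated data. Windows of 250 bases came from RefSeq (GRCm38.p6). Named genes were the set itself, genes of the other lists past the test, and up to 4 of the highest mean per list. Overlapping genes or copies were named too. Egln3, Flt1, Myod1, Hbb-bs, the endothelial genes at 0, the enamel genes, Dspp, Dmp1 and the opposite-strand pairs were named after their values were seen. A gene that this rule names is not reported here. Lists of Schwann cell and neuron, myeloid and mitochondrially encoded genes were also summed or sought: none of the first 2 had a gene past the test, and the third was not used here. Exon overlaps on opposite strands were counted over all transcripts. Exon lengths are unions over transcripts of GENCODE M21.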

Additional observations from a re-analysis of the deposited data

How the results depend on the processing

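In no setting tried did limma call a gene of the set: other pseudocounts, lower minimum means, rescaled libraries, no trend, the replicate block and each library left out all gave 0, with 0 to 2 genes of the set at an unadjusted p under 0.05 in Ascl5Mut/Mut and 0 in Ascl5Mut/WT. The calls over all genes moved more. For Ascl5Mut/Mut they numbered 20 as reported, 4 with a pseudocount of 1, 1 with a minimum mean of 10 or with no filter, and 0 without the trend, where 242 genes had an unadjusted p under 0.05. For Ascl5Mut/WT they numbered 13 as reported, 8 with a pseudocount of 1 and 0 without the trend, where 190 genes had an unadjusted p under 0.05. Leaving out 1 library gave 0 to 74 calls for Ascl5Mut/Mut (0 without mutant replicate 1, with 263 at an unadjusted p under 0.05, 4 without mutant replicate 2, and 74 without Ascl5WT/WT replicate 2) and 0 to 66 for Ascl5Mut/WT (2 and 0 without mutant replicates 1 and 2, with 133 at an unadjusted p under 0.05 in the second, and 43 and 66 without Ascl5WT/WT replicates 1 and 2). Over all tested genes same-numbered libraries showed no pairing: their deviations correlated at -0.01 and 0.02, and the replicate block gave 36 and 37 calls. Tsix, however, stood at 0 in replicate 1 of each genotype. In replicate 2 it had 310649 in Ascl5Mut/Mut, against 126014 in Ascl5WT/WT, and 259527 in Ascl5Mut/WT, against 131481 in Ascl5WT/WT. Its opposite gene Xist was also higher in replicate 2 of each genotype. The sex of the animals is not given, and its part in replicate differences was not tested. The summed level of the set had a log2 ratio of -0.065 without Pkm in Ascl5Mut/Mut, and -0.48 to -0.11 with 1 library left out. In Ascl5Mut/WT it was -0.29 without Pkm, and -0.55 to -0.30 with 1 library left out. With 1 library left out, differences in Ascl5Mut/Mut ran from -0.98 to 0.054 for Vegfa, -1.06 to -0.43 for Pkm (both ends from Ascl5WT/WT libraries), 1.24 to 2.11 for Ldha and -0.95 to 1.20 for Pfkl. In Ascl5Mut/WT they ran from -0.85 to 0.64 for Ldha, -1.63 to -0.02 for Hk2 (both ends from mutant libraries), -0.97 to -0.37 for Pkm, -0.78 to -0.21 for Vegfa and 1.03 to 2.94 for Pfkl (each of the last 3 with both ends from Ascl5WT/WT libraries). The cause was not tested. Depth also limits these genes: 5 and 5 of the 10 were above 3 estimated reads in the Ascl5Mut/Mut libraries, 7 and 6 in Ascl5Mut/WT, and 7 and 6 in Ascl5WT/WT.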

Other observations

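A ratio of 2 genes within a library does not depend on how the library was scaled. The ratio of Ldha to Pkm was 1.66 and 0.917 in Ascl5Mut/Mut, against 0.151 and 0.288 in Ascl5WT/WT, and 0.138 and 0.680 in Ascl5Mut/WT, against 0.152 and 0.289 in Ascl5WT/WT. Only in the first comparison did both mutant libraries lie above both control libraries. This pair was chosen after its values were seen, so the ratio is a description with no test.

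Ldhb, the lactate dehydrogenase subunit of aerobic tissues, had 0 and 684 in Ascl5Mut/Mut, against 0 and 239 in Ascl5WT/WT. Cxcl12, a chemokine of stromal cells, had 1713 and 801 in Ascl5Mut/Mut and 0 and 0 in Ascl5WT/WT, where up to 3 reads are allowed. In Ascl5Mut/WT it had 218 and 239, below the floor. Both genes were named after their values were seen.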
